A study of Mus musculus with 6 samples.

Results

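The Notch genes examined here were 9 of the 29626 genes in the deposited count table: the receptors Notch1, Notch2 and Notch3, the ligand Jag1, the nuclear factors Rbpj and Maml1, the regulator Numb, and the target genes Hes1 and Dtx1. All 9 were found by gene symbol. Jag1 was chosen because its counts were much lower in the KANSL1-deficient libraries, so its difference is described without a test. The other 8 were chosen by name as parts of the pathway.

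Double-positive thymocytes, which carry both CD4 and CD8, were sorted from mice aged 8 weeks, and their polyadenylated RNA was sequenced. The control group held 3 Kansl1fl/fl littermates without Cre, and the KANSL1-deficient group held 3 Kansl1fl/fl CD4-Cre mice, in which Cre is driven by Cd4. Both groups carry the floxed allele and only the second carries Cre, so Kansl1 loss and the presence of Cre cannot be told apart. KANSL1 belongs to the NSL complex, which also holds the histone acetyltransferase KAT8. The labels do not say which animals shared a litter, and p-values below set the group difference against the spread between these animals.

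Notch receptors are cut after they bind a ligand on a neighbouring cell, and the released intracellular part enters the nucleus, where it joins the DNA-binding protein RBPJ and a Mastermind coactivator to switch on targets such as Hes1. In the thymus the ligands are presented mainly by the epithelium, and signalling through Notch1 commits progenitors to the T lineage and drives the early double-negative stages. Thymocytes lower their Notch response as they pass the beta checkpoint and become double-positive.

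Library totals lay between 19361968 and 22459830 counts. Read counts are given as CPM, the usual depth-scaled unit, after TMM scaling of the libraries to each other. A gene was called changed at a Benjamini-Hochberg adjusted p under 0.05 in edgeR's quasi-likelihood test over 15353 tested genes, of which 591 were called higher and 447 lower. Scaling by library totals moved the median log2 fold change of all tested genes from -0.02 to -0.17 and turned the split to 367 higher and 959 lower, so a direction below holds on the TMM scale. Kansl1 itself was read at 211 ± 20.8 CPM in controls and 167 ± 21.3 CPM in KANSL1-deficient cells (SD, n = 3 each), a log2 fold change of -0.33 that was not called (edgeR adjusted p = 0.171). These counts cover the whole gene, including exons that Cre leaves in place. Summed markers of double-positive cells were at 13803 to 14272 CPM in control and 16301 to 18018 CPM in KANSL1-deficient libraries. The list held 10 genes, and 3 of them were called higher, among them Rag2 and Dntt, beside 3.85% of all tested genes. The groups overlapped for Cd4, Cd8b1, Rag1 and Tcf12.

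Per gene length, the members formed a low to moderate range in control cells. On the deposited FPKM scale the order of control levels was Maml1, Numb, Notch1, Notch3, Notch2, Rbpj, Hes1, Dtx1 and Jag1. Maml1 stood at 13.2 ± 2.16 and Numb at 8.33 ± 1.67 FPKM, and their control values did not overlap each other or those of Notch1 (SD, n = 3 each). From Notch1 to Hes1, each gene overlapped the next in the order, although the control values of Notch1 and Notch3 lay above all those of Rbpj and Hes1. Hes1 stood above Dtx1, and Dtx1 above Jag1, without overlap. KANSL1-deficient cells had the same order of means.

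**Figure D1:**
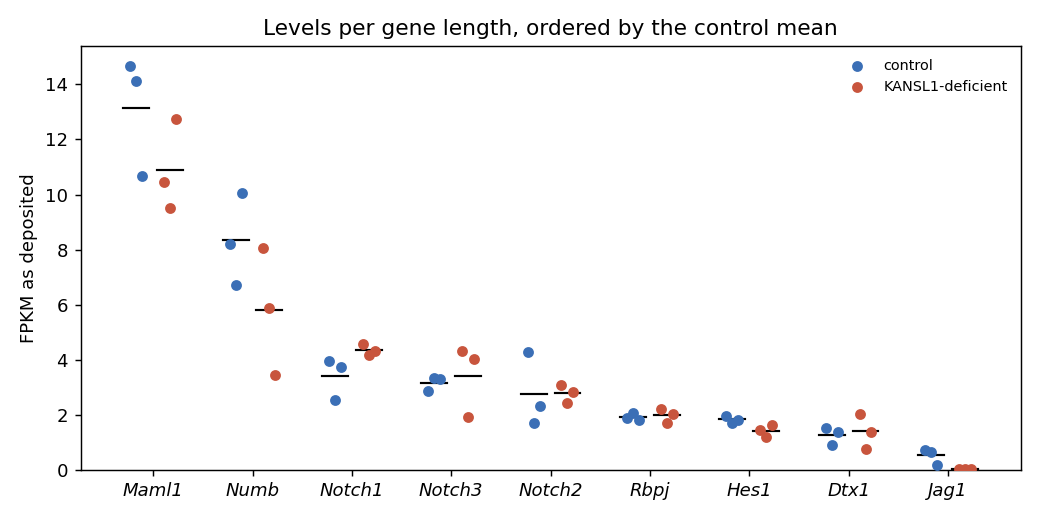
FPKM of the 9 Notch genes in each library, ordered by the control mean. Points are single mice (3 per group) and lines are group means. The group means of Maml1 and Numb lie highest, the 3 receptors lie between 1.71 and 4.58 FPKM, and Jag1 lies lowest.

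The 250 bases before the start site are shown for 3 genes: Jag1, whose counts differed most, Notch1, whose groups did not overlap, and Rbpj, which encodes the DNA-binding partner of all Notch receptors. Sequences are from RefSeq in the GRCm38.p6 build and read 5′ to 3′ on the gene's strand; 8 of the 9 members had an entry, and Hes1 had none. Jag1 is on the minus strand (chr2:137116521-137116770), Notch1 is on the minus strand (chr2:26503823-26504072) and Rbpj is on the plus strand (chr5:53590096-53590345). Capitals mark TGGGAA, the core letters that RBPJ binds, or its reverse complement TTCCCA.
Jag1: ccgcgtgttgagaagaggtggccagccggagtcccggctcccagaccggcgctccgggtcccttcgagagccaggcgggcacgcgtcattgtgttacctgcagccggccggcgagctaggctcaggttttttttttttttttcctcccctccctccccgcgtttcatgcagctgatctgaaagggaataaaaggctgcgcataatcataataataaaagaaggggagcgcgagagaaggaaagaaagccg
Notch1: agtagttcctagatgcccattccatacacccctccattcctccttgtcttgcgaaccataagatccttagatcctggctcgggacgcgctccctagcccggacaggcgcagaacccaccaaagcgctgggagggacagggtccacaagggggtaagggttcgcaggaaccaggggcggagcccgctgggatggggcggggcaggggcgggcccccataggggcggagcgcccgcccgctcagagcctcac
Rbpj: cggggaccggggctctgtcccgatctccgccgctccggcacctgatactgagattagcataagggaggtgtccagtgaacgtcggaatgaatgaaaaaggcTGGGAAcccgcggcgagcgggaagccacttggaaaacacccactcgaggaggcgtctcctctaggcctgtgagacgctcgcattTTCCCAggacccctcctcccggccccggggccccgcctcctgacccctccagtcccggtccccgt
The letters were searched on both strands. They occurred 2 times in this Rbpj window, at -149 and -65 from the start site, and not in the Jag1 or Notch1 window. The 8 genes had 11 such windows, and the 2 that held the letters are the windows of 2 neighbouring Rbpj starts, which share 1 of the matches. Of 32851 promoter windows of this length, 21.6% held the letters at least once.

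None of the 8 members other than Jag1 was called changed in edgeR's quasi-likelihood test, against 6.76% of all tested genes. DESeq2 and limma-voom also called 0 of them, beside 14.2% of the genes DESeq2 tested and 1215 of 15353 genes in limma-voom. The unadjusted edgeR p was under 0.05 for 1, Notch1, beside 22.6% of all tested genes. In 5 of the 8 the log2 fold change was positive and in 3 negative, with a median of 0.18 beside -0.02 for all tested genes. The groups did not overlap for 1 of the 8, Notch1, compared with 28.5% of all tested genes. In counts simulated from these libraries, changes were placed in genes of at least 1 CPM. The test recovered 13.4% of 1.5-fold, 44.8% of 2-fold and 83.3% of 4-fold changes, so small ones were mostly missed there. The simulation changed 67, 67 and 66 genes at these folds, fewer than were called in the data. It pooled genes of all levels from 1 CPM, so recovery for the members themselves was not measured.

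**Figure D2:**
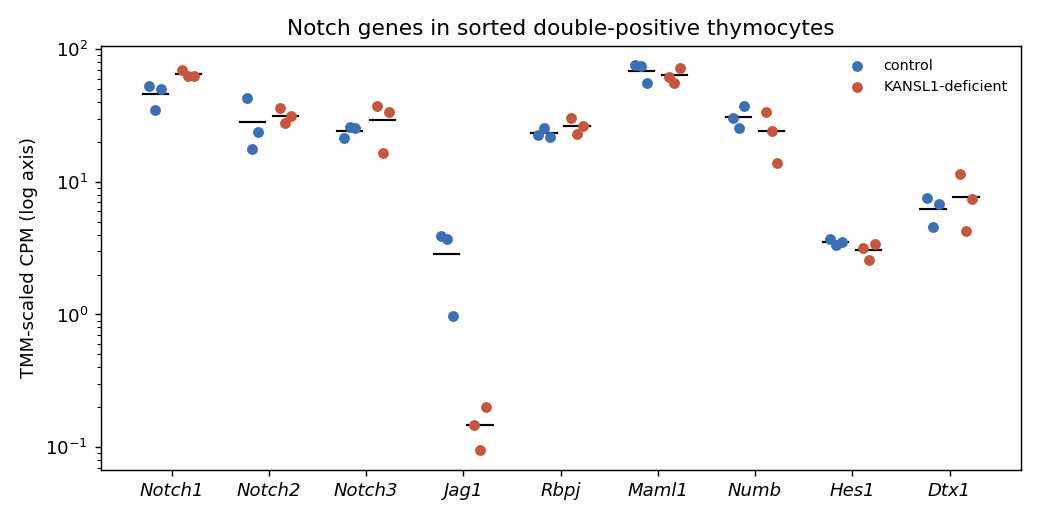
TMM-scaled CPM of the 9 Notch genes on a log axis, 1 point per mouse and a line at each group mean (3 control, 3 KANSL1-deficient). All Jag1 points of KANSL1-deficient mice lie at or below 0.200 CPM and those of controls at or above 0.968 CPM, whereas the groups of most other members overlap.

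Notch1, the receptor that drives T-lineage commitment, was read at 52.7, 35.0 and 50.4 CPM in control replicates 1 to 3. The KANSL1-deficient libraries held 70.1, 62.9 and 63.2 CPM in the same numbering. Every KANSL1-deficient library was above every control library, and control replicate 2 was the lowest. The gene (ENSMUSG00000026923, GRCm39 chromosome 2, 26347915 to 26406675) had a log2 fold change of 0.51 (95% interval 0.12 to 0.89), which was not called (edgeR adjusted p = 0.107). DESeq2 gave an adjusted p of 0.0509, and the authors' deposited table lists 0.0491 for the same gene without marking it as significant. Without control replicate 2 the log2 fold change was 0.32 (edgeR adjusted p = 0.295), and with library totals it was 0.35. The adjusted p stayed between 0.0509 and 0.366 over 15 other settings. A noncoding gene on the other strand, 0610009E02Rik, overlaps Notch1 and was read 149 times over all libraries, compared with 7050 times for Notch1.

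Notch2, a receptor best known in the B lineage and in myeloid cells, spread most among the control animals of the receptors. Its CPM was 43.1, 17.8 and 23.8 in control replicates 1 to 3, and 35.8, 27.7 and 31.3 in the KANSL1-deficient libraries. All KANSL1-deficient values lay inside the control range. The log2 fold change was 0.16 (95% interval -0.45 to 0.78; edgeR adjusted p = 0.803), and without control replicate 2 it was -0.10. The gene lies on chromosome 3, 97920843 to 98057677 (GRCm39).

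Notch3, a receptor that is itself a Notch target in early thymocytes, showed the opposite spread, narrow in controls and wide in KANSL1-deficient mice. Control libraries held 21.5, 26.0 and 25.3 CPM. KANSL1-deficient libraries held 37.5, 16.5 and 33.5 CPM, with replicate 2 below all controls and the others above them. The log2 fold change was 0.27 (95% interval -0.32 to 0.85; edgeR adjusted p = 0.628). Without KANSL1-deficient replicate 2 it was 0.55, still not called (adjusted p = 0.203). Notch3 lies on chromosome 17, 32339794 to 32385826 (GRCm39).

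The balance of the 3 receptors overlapped between the groups. Notch1 made up 35.7%, 33.6% and 39.9% of the summed FPKM of Notch1, Notch2 and Notch3 in the 3 controls. It made up 38.2%, 48.9% and 38.7% in KANSL1-deficient replicates 1 to 3, of which replicate 2 was the highest of all libraries. In that library Notch3 gave 22.6% of the sum, the lowest share of any library, and control replicate 2 had the highest Notch3 share, 43.9%. Notch4, the remaining receptor gene, was read 9 times in control and 30 times in KANSL1-deficient libraries and was too low to test.

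Jag1, which encodes a transmembrane Notch ligand, was read 81, 84 and 22 times in control replicates 1 to 3. The KANSL1-deficient libraries held 3, 2 and 4 reads. In CPM these were 3.92, 3.70 and 0.968 against 0.148, 0.0943 and 0.200. The groups did not overlap, and control replicate 3 was well below the other controls but 4.83 times the highest KANSL1-deficient library. Summed over libraries the control level was 19.3 times the KANSL1-deficient level (95% Poisson interval 9.97 to 42.9, counting error only), and the fitted log2 fold change was -4.23, at place 14 from the lowest of all tested genes. These values chose the gene and support nothing further. Because bulk RNA was measured, fewer cells carrying a transcript and less of it per cell cannot be told apart.

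Jag1 (ENSMUSG00000027276, GRCm39 chromosome 2, 136923376 to 136958564) was scarce even in controls, with 0.516 ± 0.297 FPKM (SD, n = 3), and 28.4% of tested genes were less abundant there by CPM. The log2 fold change was between -4.65 and -3.94 when any 1 library was left out. That range comes from the same libraries that chose the gene and is no further support. On log2 of FPKM plus 1 it was -0.55 and on log2 of FPKM plus 0.1 it was -2.16, scales that shrink differences of low genes. The nearest tested protein-coding genes were Slx4ip, 9.51 kb away, and Tasp1, 2720 kb away on the other side. Their log2 fold changes were -0.09 and 0.26, and neither was called (edgeR adjusted p = 0.876 and 0.383).

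Markers of other thymic cells that may express Jag1 were summed in each library. Of 9 thymic epithelial genes, Krt5, Krt8, Krt14, Foxn1 and Aire were each read at most 8 times in any library, and the summed list was at 83.6 to 92.4 CPM in control and 88.8 to 128 CPM in KANSL1-deficient libraries, most of it from Cldn4. Summed B cell genes were at 43.6 to 61.4 and 44.8 to 59.0 CPM, almost all from Cd79b, with Pax5 read at most 3 times in any library. Summed macrophage genes were at 10.6 to 16.5 and 8.77 to 16.4 CPM. Stromal and endothelial genes were at 134 to 202 and 183 to 232 CPM, led by Pecam1, and dendritic cell genes at 1521 to 1770 and 1906 to 2246 CPM, led by Ccr9, which double-positive cells express. Of 19 genes in these 5 lists that edgeR tested, edgeR called 0 and DESeq2 called 2, beside 6.76% and 14.2% of the genes each tested. DESeq2 gave no adjusted p for C1qa, Cd79a and Ebf1. The unadjusted edgeR p was under 0.05 for 6 of the 19, beside 22.6% of all tested genes.

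The groups did not overlap for 5 of these 19 genes, beside 28.5% of all tested genes. Zbtb46 and Pdgfrb were lower in the KANSL1-deficient libraries, and Ccr9, Lyz2 and Blnk were higher. The dendritic cell factor Zbtb46 was read 74, 52 and 56 times in control and 8, 20 and 23 times in KANSL1-deficient libraries. The mural cell receptor Pdgfrb was read 23, 28 and 53 times against 5, 4 and 9 times. EdgeR did not call them (adjusted p = 0.0875 and 0.0786) and DESeq2 did (0.0477 and 0.0449). In the other direction, the macrophage gene Lyz2 was read 0, 28 and 7 times in control and 43, 40 and 59 times in KANSL1-deficient libraries, and neither tool called it. The other tested macrophage genes had overlapping groups. Csf1r, Cd68 and C1qb had log2 fold changes of -1.16, -0.66 and -0.26, and C1qa had 0.68. The median of the 5 tested macrophage genes was -0.26. The part of such cells in the Jag1 difference was not tested.

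Jag2, the other Jagged ligand gene, was the most abundant ligand gene at 2.37 ± 0.963 FPKM in controls and 2.17 ± 0.268 FPKM in KANSL1-deficient cells (SD, n = 3 each). Its control libraries, at 15.9, 9.24 and 21.8 CPM, enclosed the KANSL1-deficient ones at 14.1, 16.3 and 17.4 CPM. The log2 fold change was 0.03 (95% interval -0.61 to 0.66; edgeR adjusted p = 0.975) and -0.13 with library totals. The Delta-like gene Dll4, whose product is the main Notch1 ligand of the thymic epithelium, was too low to test. It was read 13, 22 and 0 times in controls and 2, 3 and 0 times in KANSL1-deficient libraries. Dll1, Dll3, Dlk1 and Dlk2 were likewise untested, with at most 34 counts per group.

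Rbpj, the DNA-binding partner, varied little between animals. Its CPM was 22.5, 25.4 and 21.7 in controls and 30.4, 22.9 and 26.4 in KANSL1-deficient cells. The groups overlapped, with a log2 fold change of 0.19 (95% interval -0.22 to 0.61; edgeR adjusted p = 0.618). The gene lies on chromosome 5, 53623494 to 53814704 (GRCm39).

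Maml1, the Mastermind coactivator and the most abundant member per length, was read at 75.9, 75.5 and 56.1 CPM in controls and at 62.2, 55.6 and 72.6 CPM in KANSL1-deficient libraries. The ranges nearly coincided (log2 fold change -0.12, 95% interval -0.49 to 0.25; edgeR adjusted p = 0.745). Maml1 lies on chromosome 11, 50146461 to 50183138 (GRCm39), the chromosome that also carries Kansl1. Its paralogs Maml2 and Maml3 had log2 fold changes of 0.28 and 0.21, and neither was called (adjusted p = 0.565 and 0.665).

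Numb, an adaptor that promotes removal of Notch from the membrane, had its lowest value in KANSL1-deficient replicate 3. Controls were at 30.1, 25.5 and 37.4 CPM and KANSL1-deficient libraries at 33.9, 24.3 and 14.0 CPM. The log2 fold change was -0.36 (95% interval -0.98 to 0.25; edgeR adjusted p = 0.506), and without KANSL1-deficient replicate 3 it was -0.08. Numb lies on chromosome 12, 83840808 to 83968708 (GRCm39). The processed pseudogene Gm3791 lies within it on the same strand and was read 207 times over all libraries. Whether counting used strand is not stated by the labels.

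Hes1, the repressor that is the classic direct Notch target, was low and even. It was read at 3.72, 3.35 and 3.52 CPM in controls and 3.15, 2.59 and 3.40 CPM in KANSL1-deficient cells. The highest KANSL1-deficient value lay within the control range, and the log2 fold change was -0.21 (95% interval -1.02 to 0.59; edgeR adjusted p = 0.810). It was read 55 to 80 times per library. Hes1 lies on chromosome 16, 29883202 to 29886614 (GRCm39).

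Dtx1, a Deltex ubiquitin ligase that is induced by Notch and acts back on it, varied widely in the KANSL1-deficient mice. Its CPM was 7.50, 4.58 and 6.82 in controls and 11.5, 4.29 and 7.46 in KANSL1-deficient libraries. KANSL1-deficient replicate 1 was the highest and replicate 2 the lowest of all 6. The log2 fold change was 0.30 (95% interval -0.53 to 1.12; edgeR adjusted p = 0.718), and it was -0.10 without KANSL1-deficient replicate 1. The gene lies on chromosome 5, 120818267 to 120849992 (GRCm39).

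The wider pathway list held 75 genes, including the 8 members but not Jag1; of these 62 were tested, 5 rose and 1 fell. This is 9.68% of the tested list, beside 6.76% of all tested genes. Of all tested genes, 3.85% were called higher and 2.91% lower. The list's median log2 fold change was 0.06 beside -0.02 for all tested genes, and the groups did not overlap for 20 of the 62 genes (32.3%), beside 28.5% of all. With library totals the calls were 4 higher and 4 lower, and 3 genes were called without KANSL1-deficient replicate 1 or without replicate 2. DESeq2 called 11 of the 62 (17.7%), beside 14.2% of the genes it tested.

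**Figure D3:**
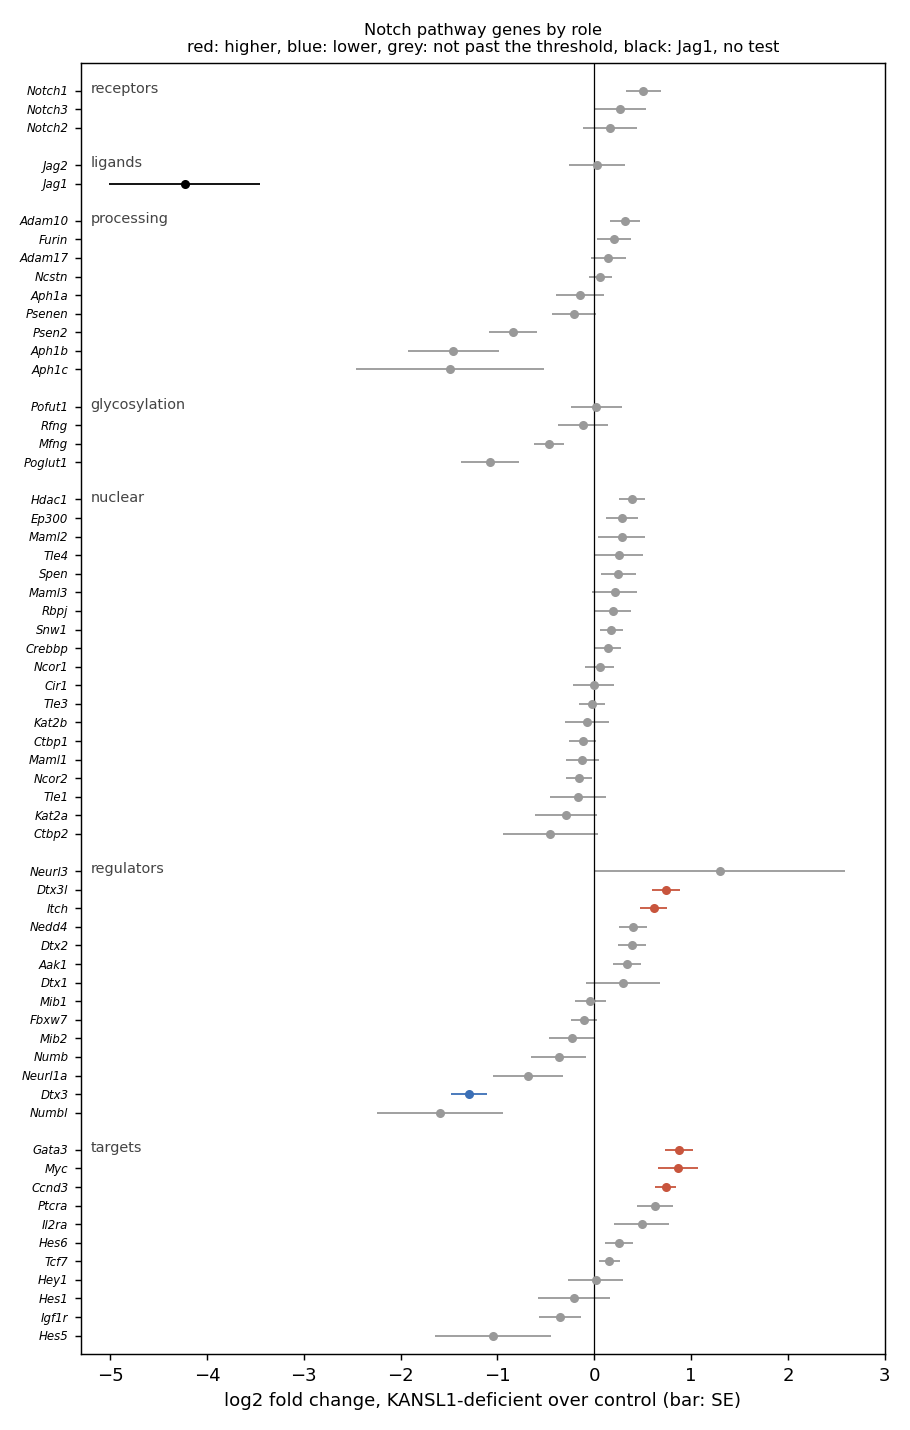
Log2 fold change of tested Notch pathway genes, KANSL1-deficient over control (3 mice each), with bars of 1 SE and genes grouped by role. Genes listed in more than 1 role appear once. The coloured genes are Dtx3, which fell, and Dtx3l, Itch, Gata3, Myc and Ccnd3, which rose; Jag1 lies far to the left at -4.23.

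Of 14 tested regulators 3 were called (21.4%, beside 6.76% of all tested genes), each a ubiquitin ligase on a list made up mostly of such genes. Dtx3, a Deltex family member, was read at 67.8, 81.7 and 74.8 CPM in controls and at 26.9, 25.8 and 38.7 CPM in KANSL1-deficient libraries. The groups were far apart, and the gene fell by 1.30 on the log2 scale (SE 0.19; edgeR adjusted p = 0.00444). Dtx3l, which pairs with the ADP-ribosyltransferase PARP9 and is induced by interferon, rose from 97.7 ± 7.50 to 163 ± 25.5 CPM (SD, n = 3 each). Its log2 fold change was 0.74 (SE 0.15; edgeR adjusted p = 0.0137), with KANSL1-deficient replicate 1 highest at 191 CPM, and the adjusted p was 0.0738 without that library and 0.0546 without replicate 2.

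Itch, a ligase that acts on Notch and other membrane receptors, rose from 148 ± 19.9 to 227 ± 23.6 CPM (log2 fold change 0.61, SE 0.14; edgeR adjusted p = 0.0243). It was not called with library totals (adjusted p = 0.0570), nor without any 1 library except control replicate 3 or KANSL1-deficient replicate 3. Within the Deltex family, Dtx3 and Dtx3l passed the test in opposite directions. Dtx2 was at a log2 fold change of 0.39 (edgeR adjusted p = 0.125), Dtx1 was not called and Dtx4 was too low to test.

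Among 13 tested target genes, Gata3, Myc and Ccnd3 rose and none fell, which is 23.1% called beside 6.76% of all tested genes. Gata3, a transcription factor of T-lineage commitment and of CD4 cells, went from 131, 106 and 133 CPM to 258, 209 and 211 CPM (log2 fold change 0.87, SE 0.14; edgeR adjusted p = 0.00644). Ccnd3, the D-type cyclin of proliferating thymocytes, went from 965 ± 42.9 to 1610 ± 86.0 CPM (0.74, SE 0.11; adjusted p = 0.00444). Both were called in all 15 other settings. Myc went from 24.5 ± 5.88 to 44.6 ± 5.99 CPM (0.87, SE 0.21; adjusted p = 0.0291) and was not called when any 1 library other than control replicate 2 was left out (adjusted p 0.0589 to 0.130).

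**Figure D4:**
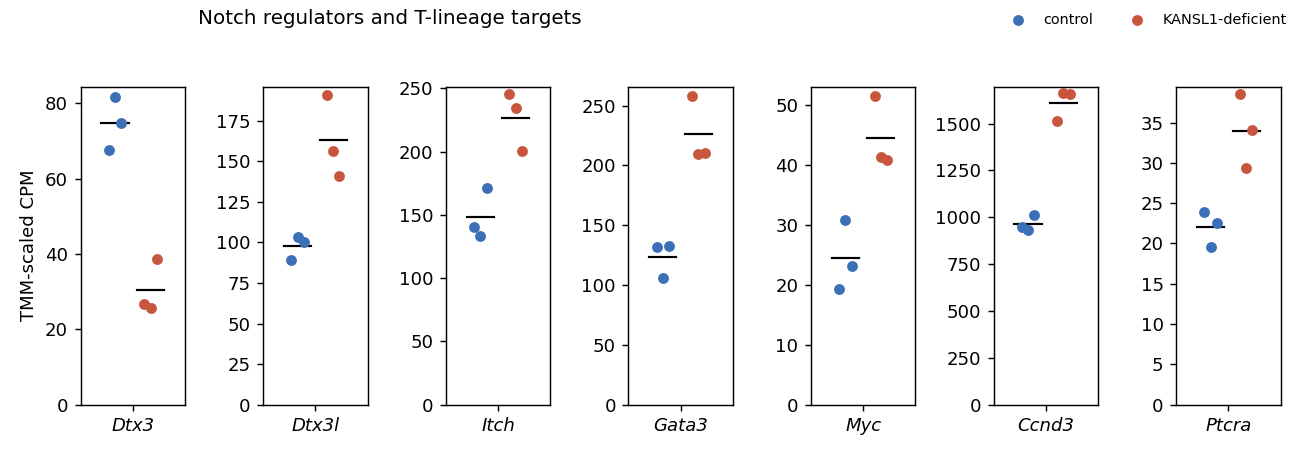
TMM-scaled CPM of the 6 called pathway genes and of Ptcra, 1 point per mouse with a line at each group mean; each panel has its own axis from 0. In every panel the 3 control and 3 KANSL1-deficient values do not overlap, and Dtx3 is the one gene that is lower.

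The other targets had log2 fold changes of both signs, and edgeR called none of them. Ptcra, the pre-T cell receptor alpha chain, was read at 23.9, 19.6 and 22.5 CPM in controls and 38.5, 29.4 and 34.0 CPM in KANSL1-deficient libraries. It had a log2 fold change of 0.63 that edgeR did not call (adjusted p = 0.0650) and DESeq2 did (0.0188). Il2ra, the alpha chain of the interleukin-2 receptor, was at 0.49 (edgeR adjusted p = 0.351) and Hes5 at -1.05 (0.337). Hes5 was read at 2.95, 3.79 and 4.05 CPM in controls and 2.36, 2.50 and 0.350 CPM in KANSL1-deficient libraries, without overlap. The groups did not overlap for 6 of the 13 tested targets (46.2%), beside 28.5% of all tested genes. Hes6 and Tcf7, the most abundant targets per length beside Ccnd3, were at 0.26 and 0.15, and neither was called (0.334 and 0.460). Nrarp, Il7r, Hes7, Hey2 and Heyl were too low to test.

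Double-negative thymocytes, the stage at which most of these targets are high, were checked by 8 markers, of which 6 are in the table and Il2ra is also on the target list. Their summed level was 57.6 to 62.6 CPM in control and 79.5 to 94.0 CPM in KANSL1-deficient libraries, without overlap. Its largest part was Cd44, whose groups overlapped, at 27.7 to 43.3 CPM in control and 38.3 to 52.7 CPM in KANSL1-deficient libraries. The median log2 fold change of the 6 was 0.47, and 1 of them, Mycn, was called higher, beside 3.85% of all tested genes. Kit, a marker of the earliest stages, was read 21 to 69 times per library with overlapping groups. The part of these cells in the Notch1, Ptcra and Gata3 differences was not tested.

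Receptor processing and sugar modification genes had no edgeR call among 14 tested, while 5 had an unadjusted p under 0.05 and DESeq2 called 4 lower. Of all tested genes, 22.6% had such a p, and DESeq2 called 14.2% of those it tested. The gamma-secretase gene Ncstn stood at 38.1 ± 1.46 FPKM in controls, and Adam10, which makes the first cut after ligand binding, at 25.3 ± 4.56 FPKM (SD, n = 3 each). Their log2 fold changes were 0.06 and 0.32 (edgeR adjusted p = 0.833 and 0.257). The presenilin gene Psen2 was at 16.2, 12.7 and 12.3 CPM in controls and 7.72, 6.88 and 8.31 CPM in KANSL1-deficient libraries. Its groups did not overlap, with a log2 fold change of -0.84 (edgeR adjusted p = 0.0613, DESeq2 0.0201). Aph1b was at -1.45 (0.0854 and 0.0390).

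Poglut1, which adds glucose to Notch, had a log2 fold change of -1.08 (edgeR adjusted p = 0.0530, DESeq2 0.00747). Mfng, the most abundant Fringe gene here at 26.9 ± 2.18 FPKM in controls, was at -0.47 (0.0897 and 0.0374), with 67.2, 80.6 and 69.9 CPM in controls and 55.3, 56.8 and 45.2 CPM in KANSL1-deficient libraries. Rfng stood at -0.12 (0.849), and Lfng, the Fringe gene of the double-negative stage, was read 4 and 3 times in the groups. Psen2, Mfng and Poglut1 were called lower by edgeR with library totals (adjusted p = 0.0324, 0.0269 and 0.0317).

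None of the 19 tested nuclear factors was called by edgeR or DESeq2, and 1, Hdac1, had an unadjusted p under 0.05 with edgeR. The shares over all tested genes were 6.76%, 14.2% and 22.6%. Hdac1, Ncor1 and Crebbp were the most abundant at 59.1 ± 7.39, 44.4 ± 6.87 and 39.2 ± 6.62 FPKM in controls (SD, n = 3 each). Their log2 fold changes were 0.39, 0.06 and 0.14. With library totals those of Ncor1 and Crebbp were -0.09 and -0.01.

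The genes whose log2 CPM followed a member most closely over the 6 libraries were picked from 9738 or 9739 tested genes of at least 5 CPM, as a description. Jag1 was closest to Bsdc1, B3gntl1 and Zfp101 (Pearson r = 1.00, 1.00 and 0.99). Notch1 was closest to Mccc1os, Gm39323 and Keap1 (r = 1.00 each), Hes1 to Smg9, Rnf122 and Tprkb (0.99, 0.98 and 0.98) and Notch3 to Acvr2b, Pak1 and Rabggta (0.96, 0.96 and 0.95). All 6 libraries, from both groups, enter each r.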

How the data were processed

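RNA-seq libraries of sorted double-positive thymocytes from 3 control and 3 KANSL1-deficient mice were used, grouped by the sample titles. The submitters' processing notes name STAR, featureCounts, DESeq2 and GRCm39, without versions. The authors deposited raw counts per gene and FPKM values; both tables imply 1 gene length over all libraries. Their comparison of the groups holds, per the file headers, the mean normalized signal, the linear fold ratio, its log2 value, p-values and adjusted p-values.

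The main test was edgeR 4.0.16 (R 4.3.3) on the counts, quasi-likelihood with robust shrinkage, TMM scaling, filterByExpr (minimum count 10, minimum total 15) and Benjamini-Hochberg adjustment at 0.05. Intervals use the test's SE and degrees of freedom. Alternatives were DESeq2 size factors, library totals, no filter, at least 5 CPM in 3 libraries, DESeq2 1.42.0, limma 3.58.1 with voom or on log2(FPKM + 1) or log2(FPKM + 0.1), a replicate block, and each library left out. The edgeR test was tested on simulated data with 15353 genes. Library totals were between 19361968 and 22459830 counts; every pair of libraries differed beyond counting noise. Poisson intervals cover counting error only.

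The members and lists were chosen with earlier results of these data known. Named genes were the members, called pathway genes, the 3 most abundant genes per role, Kansl1, and the genes closest in pattern to Jag1, Notch1, Notch3 and Hes1; others were named after their values were seen. Some genes that this rule names are left out here. Promoter sequences are RefSeq's in GRCm38.p6, and gene coordinates are the deposited GRCm39 ones.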

Additional observations from a re-analysis of the deposited data

How the results depend on the processing

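The number of called members other than Jag1 was 0 under all 15 alternatives, and the order of member levels was the same on TMM-scaled CPM per kilobase. The number of called pathway genes was 6, and it was 10 with the filter at 5 CPM, 11 with DESeq2, 3 with the replicate block, and 3 to 5 with any 1 library left out. Over all genes 1038 were called, 1729 without a filter, 2009 with DESeq2, 406 with the replicate block, and 283 to 811 with any 1 library left out. Same-numbered libraries of the groups had correlations of -0.05, -0.02 and -0.10 in their deviations from the group means. Differently numbered ones had correlations of -0.03 to 0.07. The labels do not say whether the numbers mark litters or batches, and correlations this near 0 cannot show that they do not.

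Directions turned for genes near 0. With any 1 library left out, the log2 fold change was between -0.10 and 0.59 for Notch2, -0.10 and 0.59 for Dtx1, -0.26 and 0.33 for Jag2, -0.39 and 0.19 for Rfng, and -0.07 and 0.15 for Ncor1. Without control replicate 2 the log2 fold change was -0.10 for Notch2 and -0.26 for Jag2, and without KANSL1-deficient replicate 1 it was -0.10 for Dtx1. Without control replicate 3 it was 0.19 for Rfng and -0.05 for Ncor1, and without KANSL1-deficient replicate 3 it was -0.04 for Jag2 and -0.07 for Ncor1. With library totals it was -0.13 for Jag2, -0.090 for Ncstn, -0.092 for Ncor1 and -0.012 for Crebbp. On log2(FPKM + 1) it was -0.048 for Jag2, -0.088 for Ncstn, -0.093 for Ncor1, -0.0056 for Crebbp and -0.001 for Tcf7. On log2(FPKM + 0.1) it was -0.045 for Jag2, -0.090 for Ncstn, -0.095 for Ncor1, -0.0056 for Crebbp and -0.001 for Tcf7. The cause was not tested. Jag1 and Hes1 have no value under the filter at 5 CPM. The simulation, which pooled genes from 1 CPM up, recovered 44.8% of 2-fold changes, so changes of this size could be missed.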
